A study of Mus musculus with 74 samples.

Results

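Mouse embryonic fibroblasts (MEFs) carrying the same reprogramming factors were followed in 2 media, LIF/2i and neural stem cell (NSC) medium, while doxycycline (Dox) kept the factors switched on. The comparison used 8 of the series' 74 samples, taken by their labels alone: 2 libraries per medium at day 12 and 2 at day 16, so 4 libraries of LIF/2i against 4 of NSC medium. The MEFs came from Nanog-CreER/Rosa26-tdTomato/Sox2-GFP embryos. All 4 groups had received the Dox-responsive transactivator M2rtTA and lentiviral Klf4, c-Myc and eSox17FNV, an engineered Sox17 variant, each under Dox control. Cells spent 8 days in N2B27, a serum-free base medium without these growth factors, with 1 μg/mL Dox. The culture was then divided. One arm received NSC medium, which held 10 ng/mL bFGF and 10 ng/mL EGF, and the other received LIF/2i, which held 10 ng/mL LIF, 3 μM of the GSK3 inhibitor CHIR99021 and 1 μM of the MEK inhibitor PD0325901. LIF/2i also had non-essential amino acids and sodium pyruvate, so the media differed in several components at once and their shares cannot be told apart. Dox stayed on in both arms through day 16. The day 8 libraries in N2B27 (2) stand beside both arms as the level before the split. The cells are unsorted cultures of reprogramming intermediates, read as bulk messenger RNA, so fewer cells of a type and less RNA per cell cannot be told apart.

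The media act on 3 well-known signalling routes. Growth factors such as bFGF and EGF bind receptor tyrosine kinases and signal through RAS, MEK and ERK, and active ERK induces its own inhibitors, the Dusp phosphatases and the Sprouty proteins. GSK3 marks beta-catenin for destruction, so a GSK3 inhibitor lets beta-catenin reach the TCF/LEF factors at Wnt target genes. LIF binds LIFR and gp130 (Il6st) and activates STAT3. The combination of LIF with both inhibitors is known for holding mouse embryonic stem cells in the naive state, with high Esrrb, Nanog and Klf2, whereas bFGF and EGF are the mitogens of neural stem cell culture.

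Values are the authors' normalized tag counts, in which every library has the same highest value (87546, held by 10 genes) and a median of 194 to 195. Read depth is therefore unknown, and levels at the top of the scale cannot be separated. Across genes, Pearson's r of log values was 0.936 to 0.950 between replicates, 0.914 to 0.938 between days of the same medium and 0.863 to 0.907 between media. Some genes jump between replicates: 1289 genes (6.27%) had 1 replicate below 10 and the other at 100 or more in at least 1 group, and 68.2% of them lay in the 2 lowest of 10 classes of GC content. The labels do not say that the 2 libraries of a group came from separate cultures, so p-values measure only the spread between libraries.

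Averaged over both days, 1651 genes were higher in LIF/2i and 1525 were lower, which is 8.07% and 7.45% of the 20468 genes tested. Those shares are the reference for each list count given below for the mean of both days. A gene counts as higher or lower where limma's adjusted p was under 0.05 and the log2 difference was at least 1. Log2 differences are on the log2(value + 2) scale, with the standard error of the fit. They are LIF/2i minus NSC medium unless day 8 or a difference between days is named. Calls and differences relative to day 8 use the mean of an arm's days 12 and 16 minus day 8. At day 12 alone 1093 genes (5.34%) were higher and 983 (4.80%) lower. The day 12 total of 2076 fell without LIF/2i day 12 replicate 2, and lower genes then outnumbered higher ones. In a fit of only the day 12 groups of both media the total was 943. At day 16 alone 2048 genes (10.0%) were higher and 2019 (9.86%) lower. The median difference over all genes was -0.03 for the mean of the days. Of the 3176 genes called for the mean of both days, 2256 kept their call and direction whichever of the 8 libraries was left out. With each library of a single day left out in turn, 999 of the 2076 calls at day 12 were kept. At day 16 this held for 2619 of 4067.

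**Figure D1:**
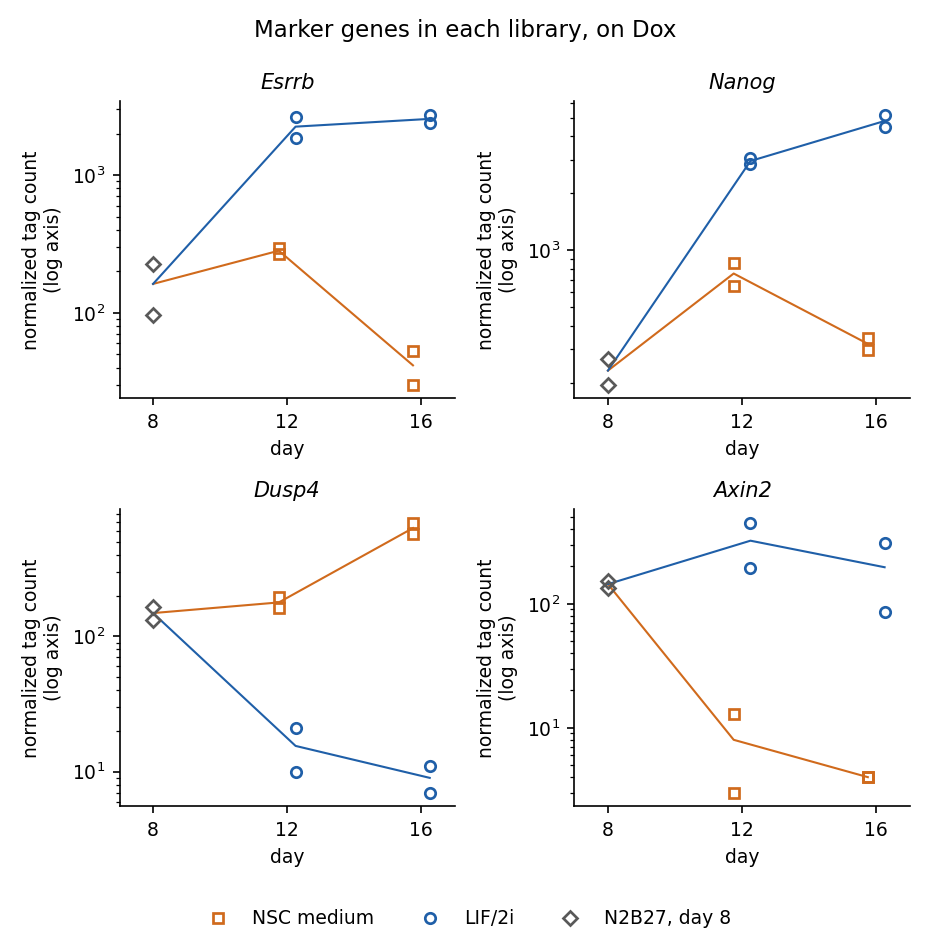
Normalized tag counts (log axis) of 4 marker genes against day of reprogramming, with 1 symbol per library (diamonds, N2B27 at day 8; squares, NSC medium; circles, LIF/2i) and lines through the group means. Esrrb and Nanog were higher in LIF/2i and Dusp4 was lower, while Axin2 stood at 86 to 449 in LIF/2i, 134 and 154 at day 8 and 13 or less in NSC medium.

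The 4 marker genes separated the media at both days, with no overlap between libraries. Esrrb (chr12:86361117-86521628, GRCm38, plus strand), a nuclear receptor of the naive network, stood at 268 and 297 in NSC medium at day 12 and at 30 and 53 at day 16. In LIF/2i it stood at 1874 and 2628, then at 2389 and 2738 (log2 4.45 ± 0.35, adjusted p = 1.25e-07). MEFs had Esrrb listed at 0 in both libraries, and the day 8 cells had 228 and 96.

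Nanog (chr6:122707489-122714633, plus strand), a core pluripotency factor, stood at 856 and 651 and then at 296 and 345 in NSC medium. The LIF/2i libraries had 3079 and 2836 at day 12 and 5178 and 4445 at day 16 (log2 2.94 ± 0.18, adjusted p = 9.26e-09). Day 8 cells had 268 and 195, so Nanog was higher than on day 8 in LIF/2i (log2 4.03 ± 0.22) and, by less, in NSC medium (log2 1.09 ± 0.22). The lowest LIF/2i library was above the highest NSC medium library by more than any gap between replicates.

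Dusp4 (chr8:34807297-34819894, plus strand), a phosphatase that switches ERK off, went the other way. It stood at 161 and 195 and then at 572 and 689 in NSC medium, against 10 and 21 and then 7 and 11 in LIF/2i (log2 -4.65 ± 0.22, adjusted p = 6.62e-10). Relative to 166 and 131 at day 8, it rose in NSC medium (log2 1.17 ± 0.27) and fell in LIF/2i (log2 -3.48 ± 0.27).

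Axin2 (chr11:108920349-108950783, plus strand), a negative regulator of beta-catenin and a classic Wnt target, stood at 3 and 13 and then at 4 and 4 in NSC medium. In LIF/2i it stood at 196 and 449 and then at 86 and 308 (log2 4.95 ± 0.43, adjusted p = 3.34e-07). Here the arm that left the day 8 level (134 and 154) was NSC medium (log2 -4.34 ± 0.52, adjusted p = 1.58e-05). The LIF/2i libraries did not differ from day 8 by the test (log2 0.61 ± 0.52, adjusted p = 0.407).

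The delivered factors were not at equal levels in the arms. The counts do not separate the delivered from the endogenous transcript, nor eSox17FNV from Sox17. Sox17 stood at 11250 and 11250 and then at 3064 and 4971 in NSC medium, against 12950 and 20427 and then 12186 and 39810 in LIF/2i (log2 1.51 ± 0.29, adjusted p = 0.000564, but 0.0538 with the compared groups only). For Klf4 the NSC medium libraries had 4025 and 4205 at day 12 and 1389 and 2465 at day 16, and the LIF/2i libraries had 4549 and 6972, then 5900 and 10028 (log2 1.25 ± 0.20). Myc was not called (3524 and 3594, then 2080 and 2655 in NSC medium; 2269 and 2416, then 3202 and 5648 in LIF/2i). At day 12 limma's adjusted p was 0.366 for Sox17, 0.263 for Klf4 and 0.139 for Myc, so these were not called. At day 16 Sox17 (log2 2.50 ± 0.41) and Klf4 (log2 2.05 ± 0.29) were higher in LIF/2i. These levels moved with the medium at day 16, and their part in the other day 16 differences was not tested.

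**Figure D2:**
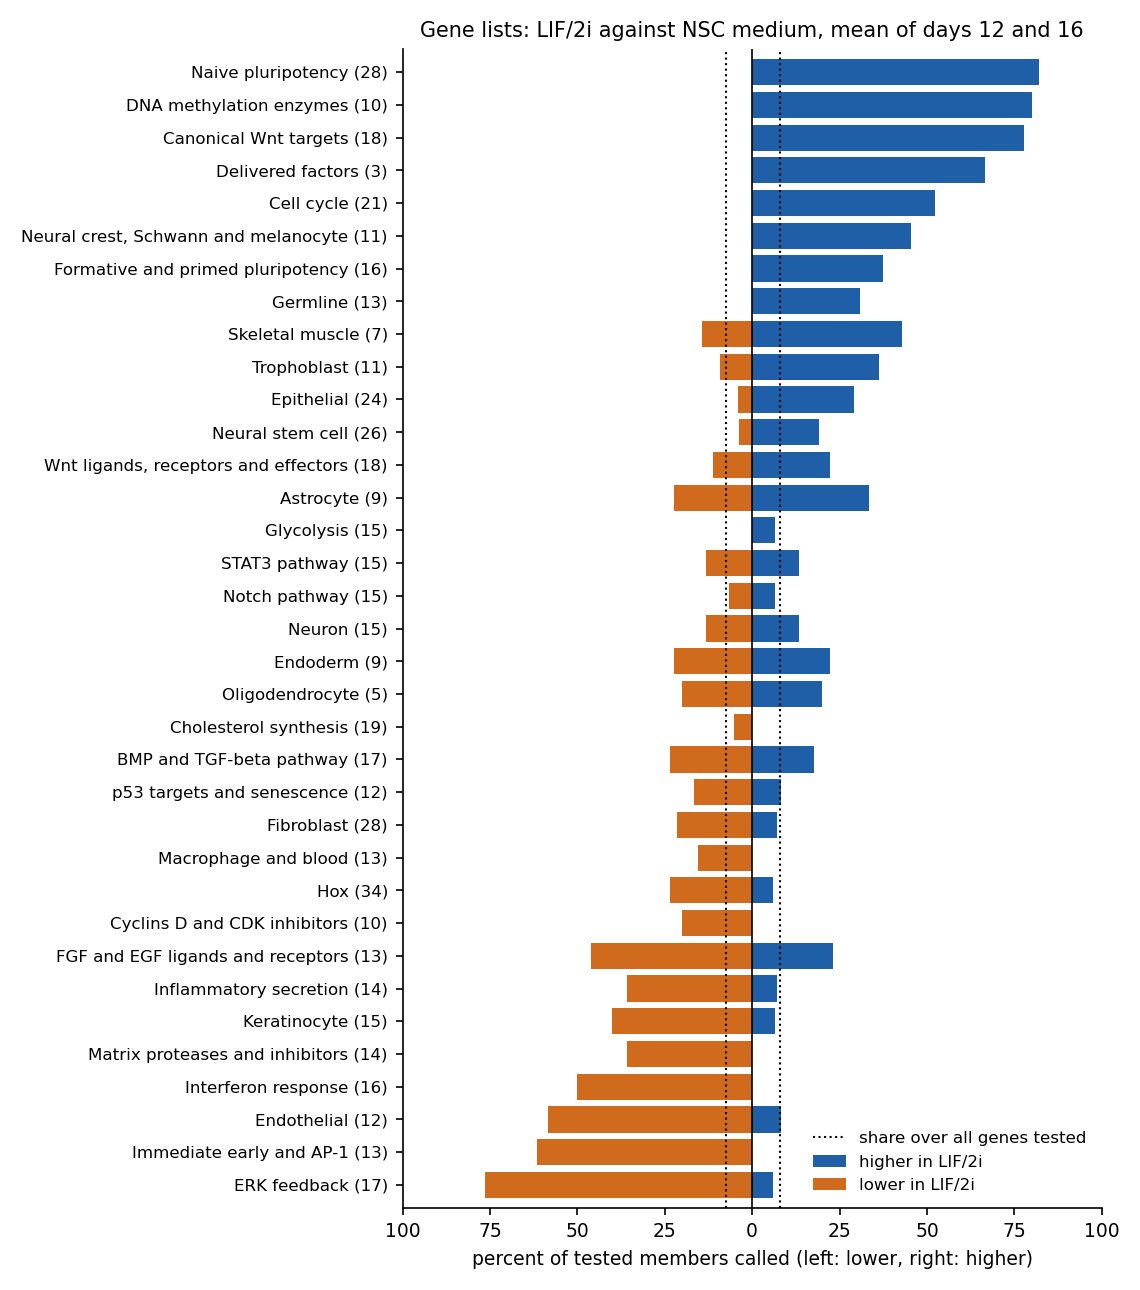
Percent of the tested members of each gene list (number tested in brackets) called higher in LIF/2i (right, blue) or lower (left, orange), mean of days 12 and 16; dotted lines mark the shares over all genes tested, 8.07% and 7.45%. Naive pluripotency, DNA methylation and Wnt target genes lead on the right, and ERK feedback, immediate early and endothelial genes on the left.

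Genes that report ERK activity were lower in LIF/2i. Of 17 ERK feedback genes 13 were lower, 1 was higher and 3 were not called, with a median log2 of -1.97 beside -0.03 over all genes. Dusp6, which removes the activating phosphates of ERK, stood at 1586 and 1543 and then at 1908 and 2367 in NSC medium. In LIF/2i it stood at 220 and 283, then at 115 and 171 (log2 -3.27 ± 0.14). The libraries of the media did not overlap, and 645 and 672 at day 8 lay between them. Lower members included Fosl1, an AP-1 subunit stabilised by ERK (log2 -4.22 ± 0.56), and Etv4, an ETS factor induced by FGF (log2 -3.74 ± 0.22). Dusp5 (log2 -3.14 ± 0.26) and Spry4, a Sprouty inhibitor of receptor signalling (log2 -2.95 ± 0.14), were lower too. The ETS factor Etv5 (1690 and 1591, then 1328 and 1452 in NSC medium; 1559 and 1913, then 1581 and 1559 in LIF/2i), the receptor Epha2 (log2 -0.46 ± 0.31) and Spred2 (log2 -0.17 ± 0.17) were not called. The ephrin receptor Epha4, singled out after its values were seen, was the member that was higher (200 and 206, then 256 and 224 in NSC medium; 690 and 1179, then 690 and 1008 in LIF/2i; log2 1.97 ± 0.19).

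Both arms moved away from day 8, in opposite directions for this list. In NSC medium 12 of 17 members were higher than on day 8 and 2 lower, where 6.91% of all genes were higher and 8.32% lower. In LIF/2i 5 of 17 were lower than on day 8, where 9.61% of all genes were lower and 8.58% higher, and this count was 3 without LIF/2i day 16 replicate 1. The day 8 libraries are shared by both comparisons.

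The immediate early genes, which are transcribed within minutes of a growth stimulus, were lower in 8 of 13 cases (median log2 -1.50) and the other 5 were not called. Egr1, a zinc finger factor switched on by ERK through the ETS partner of SRF, stood at 1684 and 1622 and then at 6531 and 6971 in NSC medium. In LIF/2i it stood at 166 and 162, then at 653 and 777 (log2 -3.28 ± 0.19). Each arm had more Egr1 at day 16 than at day 12, and the gap between the media was alike at the days (difference of the effects 0.08 ± 0.38). Egr2 (log2 -3.44 ± 0.29), Egr3 (log2 -3.00 ± 0.23), Fosb (log2 -2.08 ± 0.35), the orphan receptor Nr4a1 (log2 -2.07 ± 0.12) and Junb (log2 -1.89 ± 0.23) were lower. Jund, an AP-1 subunit that is present in resting cells, was not called (5900 to 8090 in NSC medium and 7354 to 9607 in LIF/2i).

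Among 13 FGF and EGF ligands and receptors 6 were lower and 3 higher. Areg (amphiregulin, log2 -3.00 ± 0.22), Hbegf (log2 -1.72 ± 0.25) and Ereg (log2 -1.18 ± 0.11) are ligands of the EGF receptor, and all 3 were lower in LIF/2i. So was the receptor Fgfr3 (log2 -2.38 ± 0.45). Fgf4, the FGF that pluripotent cells themselves secrete, was higher: 108 and 118, then 36 and 50 in NSC medium, and 429 and 430, then 1193 and 769 in LIF/2i (log2 3.17 ± 0.31). Erbb3, a receptor partner for neuregulin, was also higher (log2 1.25 ± 0.17). Fgfr1, the main bFGF receptor of fibroblasts, was not called, at 1996 to 2957 in NSC medium and 2190 to 3122 in LIF/2i.

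**Figure D3:**
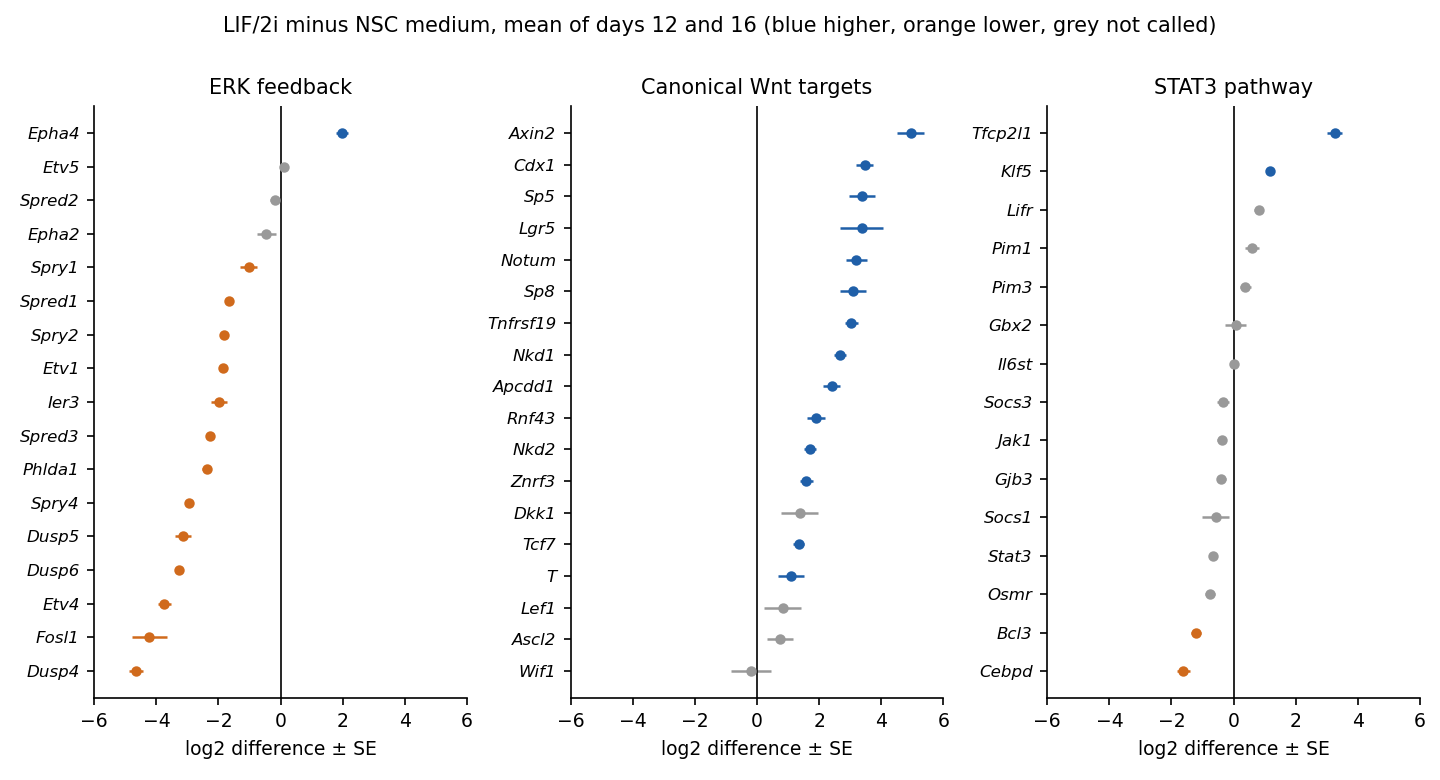
Log2 difference between LIF/2i and NSC medium (mean of days 12 and 16, bars ± SE of the fit) for each tested member of 3 pathway lists; blue was called higher, orange lower, grey not called. ERK feedback genes lie mostly to the left and Wnt targets to the right, while the STAT3 list has 2 members called on each side.

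Canonical Wnt targets were higher in LIF/2i in 14 of 18 cases, and the other 4 were not called (median log2 2.16). Several sat near 0 in NSC medium. Sp5, a zinc finger factor that represses in the Wnt response, stood at 3 and 4 and then at 0 and 1 in NSC medium, against 67 and 67 and then 8 and 43 in LIF/2i (log2 3.38 ± 0.41). Cdx1, a posterior homeobox gene, had 5 and 1, then 1 and 2 in NSC medium, and 53 and 80, then 18 and 40 in LIF/2i (log2 3.47 ± 0.27). Notum, an enzyme that inactivates Wnt ligands, was higher (log2 3.20 ± 0.33), as was Sp8 (log2 3.09 ± 0.41). So was Lgr5, the R-spondin receptor (log2 3.37 ± 0.68), whose value was 2.13 without NSC medium day 16 replicate 2, where it was listed at 0, and whose adjusted p was 0.0769 in a fit of the 4 compared groups. Lef1 (log2 0.82 ± 0.60), Wif1 (log2 -0.19 ± 0.64) and Dkk1 (log2 1.38 ± 0.60, adjusted p = 0.0723) were not called. Dkk1, a secreted Wnt inhibitor, was called without NSC medium day 16 replicate 1, with a pseudocount of 8 and with the compared groups only.

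Set beside day 8, the gap for this list had a part in each arm. In NSC medium 9 of 18 members were lower than on day 8, where 8.32% of all genes were lower. In LIF/2i 7 of 18 were higher than on day 8, where 8.58% of all genes were higher. Both counts fell when some single libraries were left out. Single members differed in this: Lgr5 stood at 1113 and 1255 at day 8 and at 265 to 451 in LIF/2i, Notum at 63 and 48 against 91 to 226, and Cdx1 was listed at 0 in both day 8 libraries.

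Promoters of 4 of the called targets hold a TCF/LEF match, and 3 are shown because beta-catenin acts through such sites. That of T is not shown. Each run covers 250 bases before to 50 bases after the start site, on the gene's strand, from RefSeq (GRCm38.p6), with the match in capitals. The motifs searched were CTTTGAA and CTTTGAT on both strands. For Sp5 the region is chr2:70474673-70474972 (plus strand) and the match begins 104 bases before the start site. For Sp8 it is chr12:118846983-118847282 (plus strand), with the match 51 bases before, and for Tnfrsf19 chr14:61037938-61038237 (minus strand), with the match 202 bases before.
Sp5: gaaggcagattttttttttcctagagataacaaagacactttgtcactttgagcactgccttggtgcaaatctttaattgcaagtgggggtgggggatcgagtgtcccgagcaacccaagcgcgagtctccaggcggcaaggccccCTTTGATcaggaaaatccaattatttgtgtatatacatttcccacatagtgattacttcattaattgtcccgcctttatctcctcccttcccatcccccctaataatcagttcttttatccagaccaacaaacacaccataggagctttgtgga
Sp8: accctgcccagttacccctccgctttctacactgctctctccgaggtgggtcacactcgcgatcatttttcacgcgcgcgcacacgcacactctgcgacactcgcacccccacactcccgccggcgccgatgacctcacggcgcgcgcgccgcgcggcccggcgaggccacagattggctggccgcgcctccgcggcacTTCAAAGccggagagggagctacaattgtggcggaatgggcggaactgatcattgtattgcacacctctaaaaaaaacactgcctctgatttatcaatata
Tnfrsf19: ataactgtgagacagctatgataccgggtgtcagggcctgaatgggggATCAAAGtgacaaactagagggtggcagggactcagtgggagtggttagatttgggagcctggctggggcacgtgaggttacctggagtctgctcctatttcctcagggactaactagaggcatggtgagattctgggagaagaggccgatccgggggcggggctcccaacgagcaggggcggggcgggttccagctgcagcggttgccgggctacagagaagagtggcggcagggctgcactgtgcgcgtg
Tnfrsf19, a TNF receptor family member, stood at 36 and 26, then 9 and 10 in NSC medium and at 144 and 154, then 105 and 263 in LIF/2i (log2 3.04 ± 0.21). A match was present in 2842 of 32851 RefSeq promoters of this length (8.65%) and in 5 of the 22 promoters found for 14 of the 19 genes on the list. Of the 14 called targets 4 held one, and how many of these targets had a promoter to search was not counted. The same search gave a STAT match (TTCNNNGAA) in 1 of 14 promoters of the STAT3 list, that of Socs3, beside 8.3% of all promoters. An ETS match (CCGGAAGT) was in 0 of 14 promoters of the ERK feedback list, beside 3.89%. A match is a string of letters and not a measured binding site.

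Wnt pathway components, as opposed to targets, were mixed: 4 of 18 were higher, 2 lower and 12 not called (median log2 0.09). The receptors Fzd10 (log2 3.33 ± 0.32), Fzd5 (log2 2.59 ± 0.34) and Fzd1 (log2 1.95 ± 0.23) and the ligand Wnt6 (log2 2.26 ± 0.47) were higher. The ligands Wnt7a (335 and 405, then 405 and 530 in NSC medium; 40 and 64, then 43 and 34 in LIF/2i; log2 -3.17 ± 0.46) and Wnt4 (log2 -1.65 ± 0.24) were lower. Ctnnb1, which encodes beta-catenin, was not called (3886 to 6323 in NSC medium and 4103 to 9343 in LIF/2i).

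**Figure D4:**
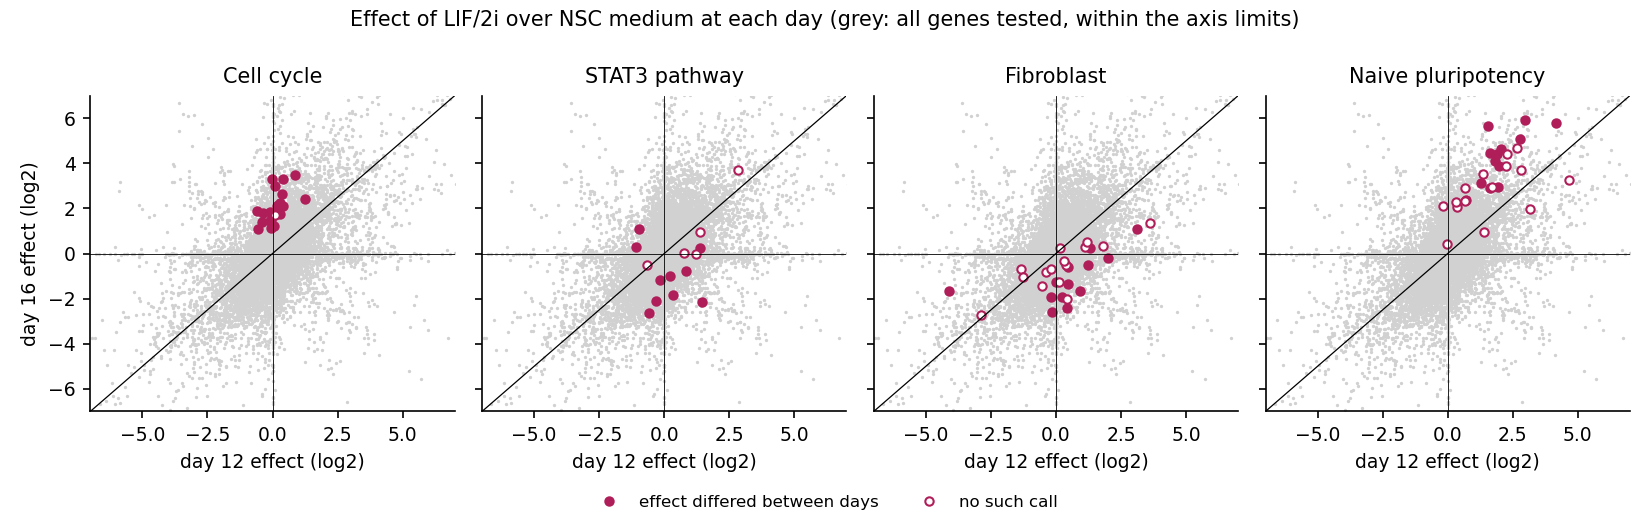
Log2 effect of LIF/2i over NSC medium at day 12 (x axis) and at day 16 (y axis), with all genes in grey and the members of 4 lists in red; filled circles mark members whose effect differed between the days by the test, and the diagonal marks equal effects. Cell cycle genes have a median effect of 0.11 at day 12, where E2f1 was called higher, and lie above 1 at day 16. Members of the STAT3 and fibroblast lists lie mostly below the diagonal.

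Most of the STAT3 list was not called apart between the media when the days were averaged. For the mean of both days 2 of 15 were higher and 2 lower (median log2 -0.34). At day 12, 5 were higher and 1 lower, beside 5.34% and 4.80% of all genes. At day 16, 1 was higher and 5 lower, beside 10.0% and 9.86%. Relative to day 8, 7 of 15 were higher and 1 lower in LIF/2i, where all genes gave 8.58% and 9.61%. In NSC medium 5 were higher than on day 8 and 1 lower, where all genes gave 6.91% and 8.32%. Tfcp2l1, a LIF-STAT3 target of the naive network, was higher at both days: 308 and 317, then 145 and 187 in NSC medium, and 1868 and 2670, then 2081 and 2213 in LIF/2i (log2 3.26 ± 0.24). Klf5, another naive factor, was higher by less (log2 1.17 ± 0.10). Cebpd (log2 -1.62 ± 0.21) and Bcl3 (log2 -1.21 ± 0.16), both STAT3-induced in inflammation, were lower. At day 12 Cebpd was not called (2379 and 2555 in NSC medium, 2040 and 1305 in LIF/2i). At day 16 it stood at 11669 and 9605 in NSC medium and at 2327 and 1222 in LIF/2i.

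Socs3, the feedback inhibitor of STAT3 signalling, was singled out after its values were seen because its direction turned. At day 12 it stood at 187 and 335 in NSC medium and 602 and 800 in LIF/2i (log2 1.46 ± 0.25, adjusted p = 0.000852). At day 16 it stood at 2766 and 2656 in NSC medium and 545 and 694 in LIF/2i (log2 -2.14 ± 0.25, adjusted p = 8.89e-06). The LIF/2i level was alike at the days and the NSC medium level was higher at day 16. The receptor chain Il6st had a like order of levels (1569 and 1483, then 3594 and 3678 in NSC medium; 2487 and 2957, then 2070 and 2159 in LIF/2i), with the media not called apart at either day and a called difference between the days (log2 -1.61). Osmr, the oncostatin M receptor, and Stat3 itself were lower in LIF/2i at day 16 and not called at day 12. The effect was lower at day 16 than at day 12 for 8 of 15 members and higher for 2, where 4.68% and 4.31% of all genes had such a difference. The count of 8 was 5 without LIF/2i day 12 replicate 2 or without LIF/2i day 16 replicate 1.

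**Figure D5:**
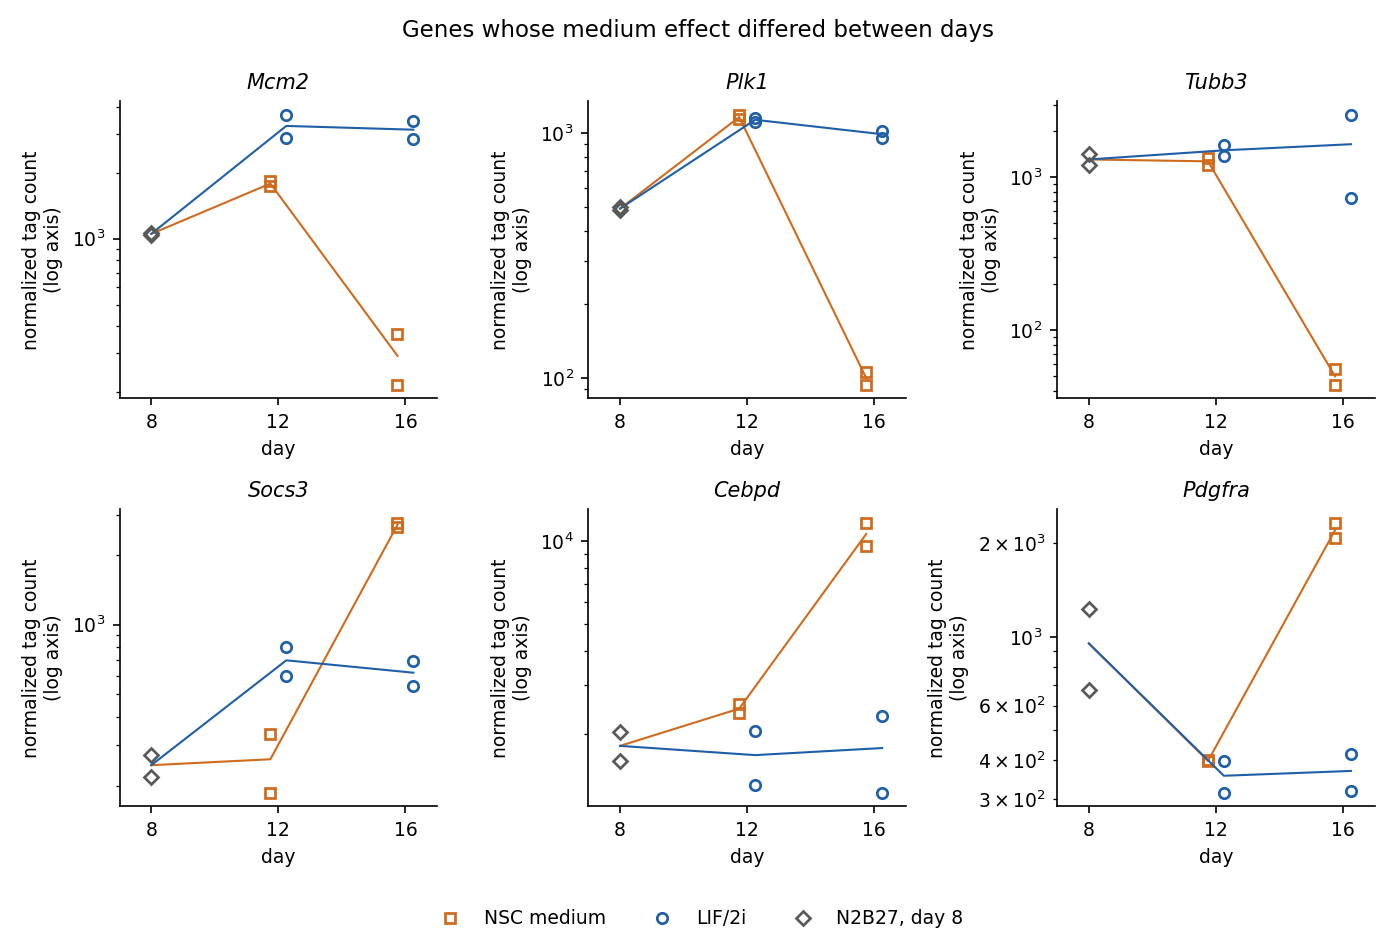
Normalized tag counts (log axis) of 6 genes whose medium effect differed between the days, with symbols and lines as in the plot of marker genes. The NSC medium libraries at day 16 stand apart in all 6 panels, at 106 or less for Plk1 and at 2656 or more for Socs3.

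Naive pluripotency genes were higher in LIF/2i in 23 of 28 cases, and the other 5 were not called (median log2 2.76). Klf2, a zinc finger factor that ERK signalling is known to remove, had the highest difference of the list. It stood at 108 and 95, then at 41 and 46 in NSC medium, and at 1900 and 1777, then at 3044 and 2031 in LIF/2i (log2 4.96 ± 0.15, adjusted p = 5.3e-12). Prdm14 (log2 3.96 ± 0.79), Lin28a (log2 3.94 ± 0.32), Nr0b1 (log2 3.67 ± 0.33) and the threonine-catabolic enzyme Tdh (log2 3.61 ± 0.50) followed after Esrrb. Pou5f1 (Oct4), which was not among the delivered factors and is named though the rule did not pick it, stood at 4505 and 4603, then 1488 and 1700 in NSC medium. In LIF/2i it stood at 7920 and 6971, then at 8617 and 8087 (log2 1.55 ± 0.32), and MEFs had it listed at 0. Zfp57 (1595 to 1885 in NSC medium, 1695 to 2656 in LIF/2i), Utf1 (log2 0.96 ± 0.41) and Tdgf1 (log2 1.51 ± 0.91) were not called.

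Relative to day 8, 27 of 28 naive genes were higher in LIF/2i, and 19 at the fewest when 1 library was left out. The share over all genes was 8.58%. In NSC medium 3 were higher and 1 lower, where all genes gave 6.91% and 8.32%, and 3 were lower without day 8 replicate 2. These counts average days 12 and 16, which differed in NSC medium. Summed over the list, NSC medium held 18046 to 18117 at day 12 and 6522 to 7522 at day 16. Day 8 held 6020 to 10915. The medium effect was larger at day 16 for 12 of 28 members, and for 7 without NSC medium day 16 replicate 1. For Nanog the effect was 1.98 ± 0.25 at day 12 and 3.90 ± 0.25 at day 16, and for Esrrb 2.97 ± 0.49 and 5.93 ± 0.49. In these genes the LIF/2i level at day 16 was at or above that of day 12, and the NSC medium level was lower.

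Formative and primed genes, active in the epiblast after naive cells begin to differentiate, were higher in 6 of 16 cases and not called in the other 10 (median log2 0.66). Nodal, a TGF-beta family ligand, stood at 44 and 41, then 4 and 8 in NSC medium and at 204 and 206, then 268 and 184 in LIF/2i (log2 3.54 ± 0.32). Foxd3 (log2 2.91 ± 0.38), Dnmt3b (log2 2.21 ± 0.27) and Zic2 (log2 1.68 ± 0.31) were higher. Lefty2, a Nodal inhibitor, was called (log2 1.76 ± 0.57, adjusted p = 0.0216), but not when LIF/2i day 12 replicate 2, LIF/2i day 16 replicate 1 or either replicate 1 of NSC medium was left out (adjusted p = 0.0506 to 0.0939). Lefty1 (log2 0.39 ± 0.40) and Dnmt3a (log2 -0.11 ± 0.19) were not called.

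Enzymes and regulators of DNA methylation were higher in 8 of 10 cases (median log2 1.47), and in 5 without replicate 2 of LIF/2i at either day. The demethylating dioxygenase Tet1 stood at 213 and 178, then 104 and 120 in NSC medium and at 584 and 1008, then 530 and 672 in LIF/2i (log2 2.18 ± 0.19). Dnmt3l, the catalytically inactive partner of the de novo methyltransferases, had 500 and 522, then 105 and 113 in NSC medium and 849 and 668, then 2957 and 1201 in LIF/2i (log2 2.32 ± 0.42). Uhrf1, which recruits Dnmt1 to newly copied DNA, was higher as well (log2 1.85 ± 0.19). At day 12 Dnmt3b, Dnmt3l and Uhrf1 were not called. Prdm14 and Dnmt3b also belong to the pluripotency lists. Germline genes were higher in 4 of 13 cases (median log2 1.68), and in 2 without NSC medium day 16 replicate 1. Tex19.1, a germ cell gene that naive stem cells also express, stood at 19 and 17, then 8 and 3 in NSC medium and at 76 and 54, then 143 and 116 in LIF/2i (log2 2.97 ± 0.27). Piwil2 (log2 1.87 ± 0.62) and Mael (log2 2.10 ± 0.66), which silence transposons in germ cells, were higher. Sycp1, a protein of the synaptonemal complex, stood at 0 and 505, then 0 and 0 in NSC medium and at 452 and 579, then 806 and 735 in LIF/2i, so the NSC medium replicates at day 12 disagreed.

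Cell cycle genes were called higher in LIF/2i at day 16, and all but 1 were not called at day 12. Of 21 members 1 was higher at day 12, E2f1, and 21 were higher at day 16, beside 5.34% and 10.0% of all genes. The effect was higher at day 16 than at day 12 for 20 of 21, beside 4.31% of all genes. This count was 20 whichever library was left out. Mcm2, a subunit of the replicative helicase, was under the fold threshold at day 12 (log2 0.86 ± 0.25). It stood there at 1746 and 1826 in NSC medium and 2874 and 3678 in LIF/2i, without overlap. At day 16 it stood at 215 and 368 against 2857 and 3441 (log2 3.47 ± 0.25, adjusted p = 5.96e-08). The mitotic kinase Plk1 had 1188 and 1141 against 1154 and 1116 at day 12, and 94 and 106 against 957 and 1025 at day 16. Its day 12 libraries overlapped between media (log2 -0.04 ± 0.26), and at day 16 they did not (log2 3.28 ± 0.26). Summed over the list, NSC medium held 53916 to 55146 at day 12 and 14842 to 16837 at day 16, and LIF/2i held 57061 to 60421 and 57570 to 57896. The day 16 gap therefore came with a lower NSC medium level, below the 23547 to 27401 of day 8.

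For the mean of both days 11 of 21 cell cycle genes were higher. They included Mcm5 (log2 1.86 ± 0.15), E2f1, the S-phase transcription factor (log2 1.85 ± 0.12), Aurkb (log2 1.55 ± 0.21) and Rrm2, a ribonucleotide reductase subunit (log2 1.49 ± 0.12). Pcna, the sliding clamp, was under the fold threshold (log2 0.87 ± 0.10). Of 10 D cyclins and CDK inhibitors 2 were lower and 8 not called. The lower members were Cdkn2b, the p15 inhibitor (493 and 509, then 1328 and 1215 in NSC medium; 309 and 319, then 233 and 200 in LIF/2i; log2 -1.61 ± 0.19) and Cdkn2a (3678 and 3746, then 8371 and 7922; 2656 and 1875, then 2783 and 2739).

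Most neural stem cell genes were not called apart between the media. Of 26 members 5 were higher in LIF/2i, 1 was lower and 20 were not called (median log2 0.09). The count of 5 was 3 without LIF/2i day 12 replicate 1 or LIF/2i day 16 replicate 2. The levels of the list were uneven, with a sum of 8028 to 9010 in NSC medium and 6885 to 7677 in LIF/2i. Nestin (Nes), Ptprz1 and Nfib made up much of it, at 737 or more in each library. The progenitor factors Nr2e1 and Hes5, chosen after their values were seen, stood at 0 (Nr2e1) and at 0 or 1 (Hes5) in the 8 libraries. Pax6 stood at 35 to 63 in NSC medium and 14 to 61 in LIF/2i. Primary NSCs in the same table had Nr2e1 at 476 and 429 and Hes5 at 2958 and 3944. Olig2, a bHLH factor of neural progenitors, was higher in LIF/2i (12 and 17, then 2 and 9 in NSC medium; 44 and 32, then 56 and 41 in LIF/2i), and primary NSCs had 17713 and 19623. Sox2, shared by the neural and pluripotency lists, stood at 172 and 179, then 89 and 99 in NSC medium and at 552 and 618, then 731 and 733 in LIF/2i (log2 2.33 ± 0.39). Sox1 (log2 1.75 ± 0.44) was higher and Sox9, a factor of glial and neural crest progenitors, lower (log2 -1.81 ± 0.14). Msi1 (log2 1.06 ± 0.33) and Dll3 (log2 1.27 ± 0.45) lost their calls in 3 and 6 of the 8 omissions of a library. Nes, an intermediate filament gene, was not called, at 1701 to 3166 in NSC medium and 1647 to 2120 in LIF/2i.

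Of 15 neuronal genes 2 were higher and 2 lower, beside 8.07% and 7.45% of all genes. Tubb3, a neuronal tubulin, stood at 1204 and 1347 in NSC medium and 1389 and 1623 in LIF/2i at day 12. At day 16 it stood at 44 and 56 against 735 and 2567 (log2 4.74 ± 0.46, adjusted p = 1.26e-06). The RNA-binding Elavl3 was higher (log2 2.84 ± 0.52), and the neuronal genes Gap43 (log2 -1.78 ± 0.10) and Snap25 (log2 -2.73 ± 0.63) were lower. Astrocyte genes were higher in 3 and lower in 2 of 9 cases, and 1 higher remained without LIF/2i day 12 replicate 2. Sparcl1, an extracellular glycoprotein, was the astrocyte gene with the largest difference (79 and 87, then 227 and 232 in NSC medium; 14 and 30, then 0 and 6 in LIF/2i; log2 -3.88 ± 0.36). Of 5 oligodendrocyte genes Mbp, a myelin protein, was higher (log2 2.61 ± 0.29) and Cspg4, the NG2 proteoglycan, was lower (log2 -2.36 ± 0.12). Neural crest genes were higher in 5 of 11 cases, and in 3 with a pseudocount of 8 or when tested against a log2 fold of 0.5. Kit, a receptor tyrosine kinase of melanoblasts and germ cells, stood at 146 and 153, then 123 and 120 in NSC medium and at 308 and 385, then 476 and 664 in LIF/2i (log2 1.69 ± 0.18). Of the other members called, Foxd3 and Erbb3 belong to the lists above as well.

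Fibroblast genes gave different answers at the 2 days. For the mean of both days 2 of 28 were higher, 6 lower and 20 not called (median log2 -0.43), and 3 were lower without NSC medium day 16 replicate 1. Col1a1, the main fibrillar collagen chain, stood at 10625 and 9605, then 24916 and 30887 in NSC medium. In LIF/2i it stood at 87546 and 87546, the highest value of the scale, and then at 39802 and 87546 (log2 2.10 ± 0.17), where the scale does not separate levels. Lox, which crosslinks collagen, was also higher (log2 2.48 ± 0.66). S100a4 (log2 -2.87 ± 0.28), Twist2 (log2 -2.81 ± 0.25) and the PDGF receptor Pdgfra (log2 -1.37 ± 0.17) were lower. Pdgfra had 400 and 397 in NSC medium and 315 and 399 in LIF/2i at day 12, and 2081 and 2328 against 421 and 319 at day 16. At day 12, 5 of 28 members were higher and 2 lower, beside 5.34% and 4.80% of all genes. The count of 5 fell without LIF/2i day 12 replicate 2 or either NSC medium library of day 12. At day 16, 1 was higher and 11 lower, beside 10.0% and 9.86% of all genes. The effect was lower at day 16 than at day 12 for 12 of 28 members and higher for 1, S100a4. Of all genes 4.68% had a lower and 4.31% a higher effect at day 16. The count of 12 moved when some single libraries were left out.

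Of 14 matrix proteases and inhibitors 5 were lower and 9 not called. Mmp9, a gelatinase driven by AP-1, had the largest difference of any list member. It stood at 1147 and 1158, then at 4548 and 3914 in NSC medium, and at 29 and 15, then at 9 and 14 in LIF/2i (log2 -6.98 ± 0.23, adjusted p = 8.7e-12). Day 8 cells had 21 and 23, so it was NSC medium that left the starting level. The plasminogen activators Plau (log2 -3.94 ± 0.61) and Plat (log2 -2.18 ± 0.12) and the inhibitor Timp1 (log2 -2.09 ± 0.51) were lower as well.

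Epithelial genes were higher in 7 of 24 cases and lower in 1 (median log2 0.55). Tjp3, a tight junction protein, had the largest increase (52 and 67, then 32 and 35 in NSC medium; 304 and 389, then 483 and 379 in LIF/2i; log2 3.05 ± 0.20). The epithelial factor Elf3 (log2 1.68 ± 0.27) and P-cadherin, Cdh3 (log2 1.67 ± 0.12), were higher, and Krt19 was lower (log2 -1.50 ± 0.22). E-cadherin, Cdh1, stood at 903 and 939, then 756 and 1170 in NSC medium and at 2327 and 3677, then 2367 and 3064 in LIF/2i. Its libraries did not overlap, yet adjusted p was 0.0645, and 0.00571 with the compared groups only. Krt8 was not called (7352 to 10024 in NSC medium, 6531 to 8087 in LIF/2i).

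Keratinocyte genes were lower in 6 of 15 cases and higher in 1 (median log2 -0.90). Sprr1a, a cornified envelope protein, stood at 1195 and 1028, then 1684 and 1667 in NSC medium and at 19 and 29, then 59 and 27 in LIF/2i (log2 -5.38 ± 0.34). The envelope proteins Ivl (log2 -4.75 ± 0.52) and Lor (log2 -4.59 ± 0.35) and the keratins Krt16 (log2 -4.28 ± 0.25) and Krt6a (log2 -2.67 ± 0.15) were lower too. Krt1 was the member that was higher (log2 2.05 ± 0.51), but by 1.22 without LIF/2i day 12 replicate 2, which held 68 beside 5 in its partner. In a fit of the 4 compared groups it was not called (adjusted p = 0.113), which left 0 members higher. Krt17 was not called (log2 -0.55 ± 0.33).

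Endothelial genes were lower in 7 of 12 cases and higher in 1 (median log2 -2.02). Cdh5, the junctional cadherin of endothelium, stood at 756 and 651, then 421 and 640 in NSC medium and at 42 and 37, then 19 and 32 in LIF/2i (log2 -4.19 ± 0.43). Day 8 cells had 147 and 164, between the arms. Emcn (log2 -5.38 ± 1.09), Sox7 (log2 -3.41 ± 0.75), the receptor Tie1 (log2 -3.22 ± 0.37) and Plvap (log2 -2.61 ± 0.32) were lower. Pecam1, which mouse embryonic stem cells also express, was the member that was higher (log2 1.80 ± 0.19). Notch4, an endothelial Notch receptor on the Notch list, was lower (log2 -3.46 ± 0.31).

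Trophoblast genes were split: 4 of 11 were higher and 1 lower (median log2 0.77). The trophoblast factor Gcm1 stood at 0 and 3, then 3 and 3 in NSC medium and at 72 and 114, then 54 and 54 in LIF/2i (log2 4.18 ± 0.31). Gata2 (log2 2.11 ± 0.21), Tfap2c (log2 1.91 ± 0.23) and the imprinted Peg10 (log2 1.64 ± 0.30) were higher. Tpbpa, a marker of the spongiotrophoblast, was the lower member: 4859 and 2957, then 713 and 806 in NSC medium, against 310 and 292, then 192 and 237 in LIF/2i (log2 -2.73 ± 0.17). Macrophage and blood markers were lower in 2 of 13 cases, beside 7.45% of all genes. These were Cd68 (log2 -1.79 ± 0.19) and Cd14 (log2 -1.63 ± 0.25). Of the 13 markers 4 were listed at 0 in all 8 libraries.

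Part of the inflammatory and interferon genes were lower in LIF/2i. Of 14 secreted inflammatory factors 5 were lower and 1 higher (median log2 -0.95). The count of 5 was 2 without NSC medium day 16 replicate 1, and 3 without replicate 2 of that group, either library of NSC medium at day 12, or replicate 2 of LIF/2i at either day. Ccl2, a monocyte chemokine, stood at 9066 and 12178, then 24916 and 17710 in NSC medium and at 1552 and 1219, then 1192 and 1056 in LIF/2i (log2 -3.58 ± 0.89). The calls for Ptgs2, Lcn2 and Lif each ended without some of the libraries. Saa3, an acute-phase protein of the STAT3 and NF-kB response, was the member that was higher: 172 and 133, then 271 and 256 in NSC medium, and 5430 and 2820, then 7352 and 4603 in LIF/2i (log2 4.56 ± 0.81).

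Interferon response genes were lower in 8 of 16 cases and not called in the other 8 (median log2 -1.29). Psmb8, an immunoproteasome subunit, stood at 451 and 1120, then 1284 and 597 in NSC medium and at 30 and 28, then 70 and 60 in LIF/2i (log2 -4.12 ± 0.51). The day 8 replicates stood far apart, at 85 and 711. Irf7 (log2 -3.02 ± 0.54), Gbp2 (log2 -2.42 ± 0.38), Isg15 (log2 -2.06 ± 0.53) and Irf1 (log2 -1.60 ± 0.23) were lower. Summed over the list, the libraries held 24032 to 34139 and 24595 to 32889 in NSC medium, 9365 to 12330 and 13039 to 19389 in LIF/2i, and 18720 and 56307 at day 8.

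Of 17 BMP and TGF-beta genes 4 were lower and 3 higher. Beside this and the other lists of this paragraph, 7.45% of all genes were lower and 8.07% higher. The BMP targets Id1 (2978 and 3122, then 2567 and 1997 in NSC medium; 875 and 676, then 332 and 390 in LIF/2i; log2 -2.32 ± 0.15) and Id3 (log2 -2.45 ± 0.15) were lower, as was the ligand Tgfb1 (log2 -3.13 ± 0.41). Bmp7 (log2 2.25 ± 0.26) and Msx2 (log2 2.22 ± 0.16) were higher. Hox genes were lower in 8 of 34 cases and higher in 2 (median log2 -0.49), and in 1 without replicate 2 of LIF/2i at either day or of NSC medium at day 16. The lower members included Hoxb2 (log2 -1.88 ± 0.29) and Hoxb5 (log2 -1.78 ± 0.22). Of 15 glycolysis genes the glucose transporter Slc2a3 was higher (1502 and 1403, then 1154 and 1483 in NSC medium; 3943 and 4399, then 8087 and 7685 in LIF/2i; log2 2.05 ± 0.20) and the others were not called. Of 19 cholesterol synthesis genes Pmvk was lower (log2 -1.02 ± 0.15) and the others were not called, and Pmvk lost its call without replicate 2 of either medium at day 12 or without NSC medium day 16 replicate 1.

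By size alone, the 12 highest and 12 lowest called genes with a group mean of at least 100 were mostly listed at 0 in the other medium. Among the 12 highest, 8 were listed at 0 in all 4 NSC medium libraries, 10 lay in the 2 lowest GC classes and 9 had discordant replicates in some group. They were Efhc2, Npy6r, Tex11, Mup20, Olfr836, Gm4767, Nlrp4f, BC053393, Gm5622, Pramel7, BB287469 and Zfp986. Efhc2 was listed at 0 in the 4 NSC medium libraries and stood at 326 and 583, then 525 and 448 in LIF/2i, with 444 and 421 at day 8. Tex11, a meiotic gene, was listed at 0 in NSC medium and at day 8 and stood at 324 and 305, then 483 and 585 in LIF/2i. Pramel7, a gene of the early embryo, was also listed at 0 in both and stood at 151 and 163, then 285 and 242.

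The 12 lowest were Prl7b1, A630095E13Rik, Vip, Ccr1, Prl2c1, Prl2c3, Myct1, Ctsq, Esm1, Glyat, Mmp9 and Prl4a1. Of these, 10 were listed at 0 in all 4 LIF/2i libraries, 9 lay in the 2 lowest GC classes and 7 had discordant replicates in some group. Prl7b1, a placental member of the prolactin family, stood at 3566 and 2857, then 1184 and 1148 in NSC medium and was listed at 0 in LIF/2i and at day 8. Ctsq, a placental cathepsin, had 284 and 336, then 314 and 280 in NSC medium and was listed at 0 in the same groups. Esm1, a secreted endothelial proteoglycan, had 174 and 195, then 355 and 442 in NSC medium, with 135 and 104 at day 8. The near-identical copies of the prolactin and Pramel families share reads, so the split between their members is uncertain. Leaving out all genes with discordant replicates, a choice made after seeing the data, gave 3035 called genes in place of 3176.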

How the data were processed

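RNA was sequenced from bulk cultures after oligo(dT) enrichment, per the labels' protocols. The deposited values are the authors' normalized tag counts, treated here as a score because every library shares the same distribution; RSEM and Bowtie2 2.0 with mm10 are named per the submitters' processing notes. Libraries were matched to groups by their labels, 26 in 13 groups, and 3 columns were not used. Of 20558 genes, the 20468 that reached 10 in 2 or more libraries were tested with limma 3.58.1 in R 4.3.3, with 1 mean per group, a trend of variance on mean and Benjamini-Hochberg adjustment over all genes in each comparison. Scripts were tested on simulated data. The members and gene lists were chosen with earlier results of these data known. Named genes are the 12 largest changes each way with libraries that do not overlap and a group mean of 100, up to 6 called and 3 uncalled members per list, the markers, the delivered factors and up to 6 genes each way picked for their difference between days. Others (Epha4, Socs3, Pou5f1, Cdh1, Krt19, Pecam1, Tnfrsf19, Hes5 and Nr2e1) were chosen after their values were seen. Alternatives covered the pseudocount, filter, normalization, groups fitted, thresholds, replicate block and each library left out.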

Additional observations from a re-analysis of the deposited data

Results flagged for a closer look

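The effect of the medium differed between day 12 and day 16 for 1840 genes by limma's interaction contrast (adjusted p under 0.05 and a difference of at least 1 on the log2 scale). Values in brackets are the day 16 effect minus the day 12 effect of LIF/2i over NSC medium, on that scale. Leaving out 1 library at a time, 988 of the 1840 genes kept the call.

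Among the genes named here, those with a higher LIF/2i effect at day 16 whose call was kept in every omission were Fgf4 (2.52), Klf2 (1.62), Esrrb (2.96), Tdh (4.13), Nanog (1.92), Nodal (2.64), Dnmt3b (2.89), Dnmt3l (3.53), Uhrf1 (2.60), Mcm2 (2.61), Mcm5 (2.89), E2f1 (1.17), Plk1 (3.32), Aurkb (2.86), Rrm2 (2.27), Pcna (1.91), Tubb3 (4.50), Pecam1 (1.79), S100a4 (2.44), Tpbpa (1.83), Cyct (10.19). Of these, Cyct lost its call in a fit of the 4 compared groups (adjusted p = 0.0993), and Fgf4 (0.057), Nodal (0.0511), E2f1 (0.0977) and Pecam1 (0.0562) lost theirs when tested against a log2 fold of 0.5. They hold DNA replication and mitosis genes, naive and formative pluripotency genes and DNA methylation enzymes. Those with a lower effect at day 16, kept in every omission, were Dusp4 (-2.43), Spry4 (-1.22), Cebpd (-2.05), Bcl3 (-1.78), Il6st (-1.61), Osmr (-2.17), Socs3 (-3.60), Cdkn2b (-1.88), Mmp9 (-2.66), Col1a1 (-2.03), Pdgfra (-2.41), Ms4a4b (-11.30), Olfr1198 (-11.28), Sprr2a1 (-10.47), Olfr1269 (-9.38). In a fit of the 4 compared groups Dusp4 (adjusted p = 0.0614), Cebpd (0.0843), Col1a1 (0.0948), Ms4a4b (0.122), Sprr2a1 (0.118) and Olfr1269 (0.0896) lost their calls, and Spry4 (0.146) did so against a log2 fold of 0.5. Col1a1 was at the highest value of the scale in both LIF/2i libraries of day 12 and in 1 of day 16, so the size of its difference cannot be read. They hold STAT3 pathway members, ERK feedback genes and fibroblast genes. Socs3 was higher in LIF/2i at day 12 and lower at day 16.

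The difference was called in the fit of all libraries and lost when at least 1 library was left out for Tnfrsf19 (1.66), Lin28a (2.28), Foxd3 (2.45), Lefty1 (2.84), Krt6a (1.00), Klf4 (1.60), Myc (1.46), Sox17 (1.96), Neurod4 (11.98), Epgn (10.28), Shisal2b (9.61), Fgf14 (9.37), Lrat (9.18) with a higher effect at day 16. The same held for Dusp6 (-1.26), Egr2 (-1.93), Junb (-1.51), Areg (-1.41), Wnt6 (-2.88), Stat3 (-1.02), Sox9 (-1.09), Plat (-1.04), Id3 (-1.22), Vmn1r214 (-14.11), Vwde (-9.45) with a lower effect at day 16. Cyct, Ms4a4b, Olfr1198, Olfr1269, Sprr2a1, Epgn, Fgf14, Lrat, Neurod4, Shisal2b, Vmn1r214 and Vwde were picked for the size of this difference, so their values are a description. Several of the largest values belong to genes listed at 0 in some libraries, where the size depends on the pseudocount.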

How the results depend on the processing

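Of the values tested, none reversed. The count of called genes was 9141 for the mean of both days with no fold threshold, 4922 at day 12, 7900 at day 16, 3417 for the difference between days, 8668 for LIF/2i against day 8 and 8324 for NSC medium against day 8. With the compared groups only it was 943 at day 12 and 2710 at day 16, and testing against a log2 fold of 0.5 gave 1136 at day 12 and 840 for the difference between days. Without 1 library it ranged from 2930 to 3339 for the mean, 1336 to 2478 at day 12, 3540 to 4157 at day 16, 1464 to 2266 for the difference, 2973 to 4032 for LIF/2i against day 8 and 2410 to 3326 for NSC medium against day 8. Same-numbered replicates did not deviate together (r -0.028 to 0.088). With the replicate block the counts were 3170, 2102, 4079, 1892, 3722 and 3120 in the same order, and among the named genes Cdh1 gained its call (adjusted p = 0.0482) and the day difference of Wnt6 lost its call (0.055). Read depth is unknown, and values at 0 or at the top of the scale limit the fold that can be read.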

Other observations

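Gene families, looked at after their values were seen, are given as counts for the mean of both days. Over all genes 8.07% were higher and 7.45% lower. Sprr1a and several keratins were already counted in the keratinocyte and epithelial lists. Of 23 prolactin family genes, most of them placental hormones, 16 were lower in LIF/2i and 1 higher (median log2 -3.98), and 7 of 11 Ceacam genes were lower (median log2 -2.53). Of 9 Sprr genes of the cornified envelope 5 were lower, and of 21 keratins 8 were lower and 1 higher. Antigen presentation genes (MHC class I and II, B2m and Tap) were lower in 11 and higher in 3 of 27 cases, and integrins and laminins lower in 11 and higher in 2 of 39. Of 78 respiratory chain subunits 0 were called.

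Of 12 Pramel and Pramef genes, which are expressed in early embryos and germ cells, 9 were higher in LIF/2i (median log2 3.11). Of 12 Nlrp genes 5 were higher and 1 lower, and of 15 genes in the Zscan4, Tcstv and Usp17l families 6 were higher. Members of these families share reads with near-identical copies, so their split is uncertain.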
